A study of Homo sapiens with 12 samples.

Results

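Circular RNAs recovered with an antibody to IGF2BP2 were compared with those recovered by normal rabbit IgG in MDA-MB-231 cells with established resistance to BET inhibitors (Res). The comparison used 6 of the 12 libraries of the study, 3 immunoprecipitated with the anti-IGF2BP2 monoclonal antibody (RIP) and 3 with IgG. Both groups came from the same resistant cells, which were kept under BET inhibitor (BETi) until harvest. The other 6 libraries came from the untreated parental cells (Sens, labelled WT) with the same antibodies, and they enter only the test of a difference between the lines and 1 alternative fit. MDA-MB-231 is an established triple-negative breast cancer line. The inhibitor, its dose, and whether Res is a clone or a pool are not given in the sources used here. The deposited table has 6384 circular RNAs (circRNAs). A circRNA was tested when it had at least 2 counts in at least 3 of the 6 Res libraries, which 884 did.

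IGF2BP2 is a cytoplasmic RNA-binding protein with KH domains that reads N6-methyladenosine and is known for stabilising its target RNAs and promoting their translation, MYC mRNA among them. CircRNAs are closed transcripts made when a downstream splice donor joins an upstream acceptor. They lack free ends, are long-lived, and can bind RNA-binding proteins. BET inhibitors displace bromodomain and extra-terminal proteins from acetylated chromatin and lower MYC transcription in many tumour cells. In RNA immunoprecipitation followed by sequencing, RNA that the IgG control also recovers is the background. The deposited table pairs circRNA identifiers with no gene and no sequence. Common names below, and the host genes they carry, were matched to the circBase identifiers from general knowledge and could not be checked against these files.

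Counts were low. The RIP libraries held 5727, 8662 and 5179 circRNA counts (replicates 1, 2 and 3) and the IgG libraries 3860, 5396 and 6036, so the limit of 3 counts that an absent circRNA allows was 0.0346% to 0.0777% of a library. Of circRNA and ERCC counts together, ERCC spike-in transcripts took 7.51% to 10.9% in the RIP libraries and 93.5% to 93.8% in IgG. Reads of other RNA are not in the deposited table. Nothing in the labels says that replicates were separate cultures, so p-values measure only the spread between these libraries, which may be technical. Libraries of 1 group did differ by more than sampling noise, with a chi-square per degree of freedom of 1.28 to 1.92 in the 6 pairs. Values after ± are SDs over n = 3 libraries, and CPM is the count scaled to a common effective library size after TMM (trimmed mean of M values).

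The antibodies recovered pools of different shape. In the RIP, 4274 circRNAs were detected, and 62.0% of them appeared in 1 library, 21.7% in 2 and 16.3% in all 3. In IgG, 1243 were detected, and 7.64% appeared in 1 library, 20.4% in 2 and 72.0% in all 3. The commonest summed count of a detected circRNA was 1 in the RIP, shared by 1955 circRNAs, and 7 in IgG, shared by 102. With 4 to 12 counts over the group, 50.8% of 797 circRNAs were in all 3 RIP libraries and 72.1% of 695 in all 3 IgG libraries. Counts were not matched within this band, and they peak lower in the RIP than in IgG. These shares therefore cannot tell whether recurrence differed at equal count.

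**Figure D1:**
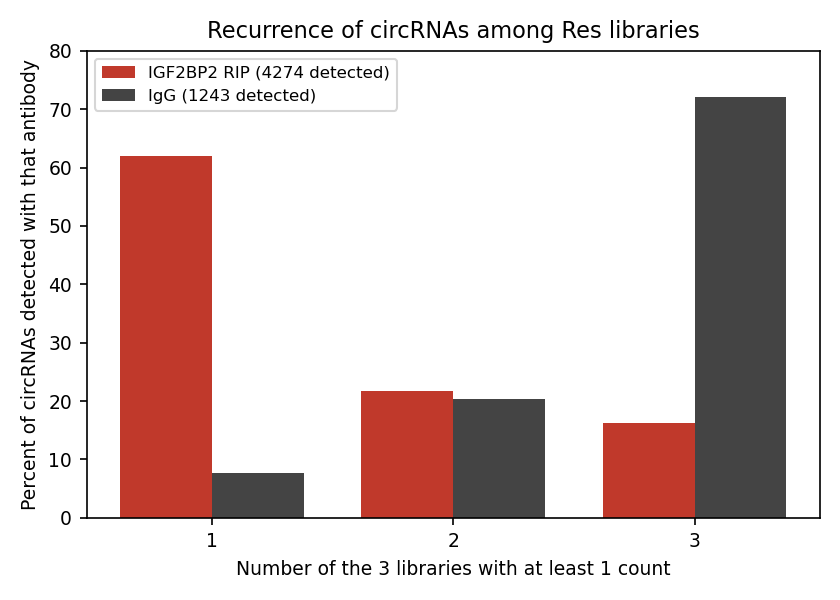
Percent of the circRNAs detected with each antibody (y axis) that had at least 1 count in 1, 2 or all 3 of its Res libraries (x axis). Bars are shares of 4274 circRNAs in the RIP and 1243 in IgG; most RIP circRNAs were seen in 1 library and most IgG circRNAs in all 3.

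The RIP libraries held 2064, 2681 and 1847 circRNAs and the IgG libraries 1039, 1109 and 1138. Drawn to an equal depth of 3860 counts, the expected numbers were 1613 ± 56.3 and 1039 ± 4.22. When only circRNAs with at least 2 counts in a library were taken, the numbers were 886, 1221 and 784 in the RIP and 778, 917 and 971 in IgG. These groups overlapped (964 ± 229 against 889 ± 99.6; two-sided exact permutation p = 0.8). Single counts were the larger share of what the RIP detected: 56.4% ± 1.67 of detected circRNAs had exactly 1 count in a RIP library and 19.0% ± 5.43 in an IgG library. The RIP was at the same time more concentrated at the top, with 13.8% ± 0.545 of counts in the 10 most abundant circRNAs of a library against 7.57% ± 0.439. The RIP and IgG groups did not overlap in numbers detected, at equal depth or not, single counts or top share, nor in counts per 1000 ERCC counts. Each of these 5 measures had a two-sided exact permutation p of 0.1, the smallest that 3 against 3 libraries allow, and 0.1 after adjustment.

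The comparison asks which circRNAs the IGF2BP2 antibody recovers from resistant cells beyond the IgG background. On the TMM scale, 240 of the 884 circRNAs were higher in the RIP (27.1% of those tested) and 338 lower (38.2%), by edgeR's quasi-likelihood test at a Benjamini-Hochberg adjusted p under 0.05. The split depended on scaling: circRNA column totals gave 213 higher and 465 lower, and spike-in totals gave 575 higher and 0 lower. It also moved with the model and the filter: a replicate block gave 219 higher and 179 lower, and testing all 4837 detected circRNAs gave 386 higher and 212 lower. Across the 884 circRNAs the median log2 fold change was -0.90 with TMM, -1.80 with column totals and 5.32 with spike-in totals, so a fold change here states a circRNA's place relative to the other circRNAs.

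Most calls belonged to circRNAs seen with 1 antibody only. All 170 tested circRNAs without an IgG count were called higher, down to a summed RIP count of 6, and all 212 without a RIP count were called lower, down to a summed IgG count of 6. Such circRNAs passed the filter only through the group that held them, so these counts are no support for a difference. Of the 502 tested circRNAs with counts from both antibodies, 70 were called higher, 126 lower and 306 neither. The filter limits these counts too, since 260 of the 502 passed through the IgG libraries alone and 49 through the RIP libraries alone. The 101 circRNAs with at least 2 counts in all 6 libraries gave 38 higher, 9 lower and 54 uncalled. Below, a p is given for the RIP against IgG test only where a circRNA had at least 2 counts in all 6 libraries, or where it was not called. How small such a p was depended strongly on the settings of the fit, as the closing section shows. The calls with more than 3 counts in the lower group were 56 higher, with folds from 1.88 to 55.6 (median 5.07), and 24 lower, with folds from 1.72 to 7.66 (median 3.55). Another 550 circRNAs fell just short of the filter, with at least 2 counts in exactly 2 libraries and a median summed count of 7. The 570 just inside it, with exactly 3 such libraries, had a median of 13.

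**Figure D2:**
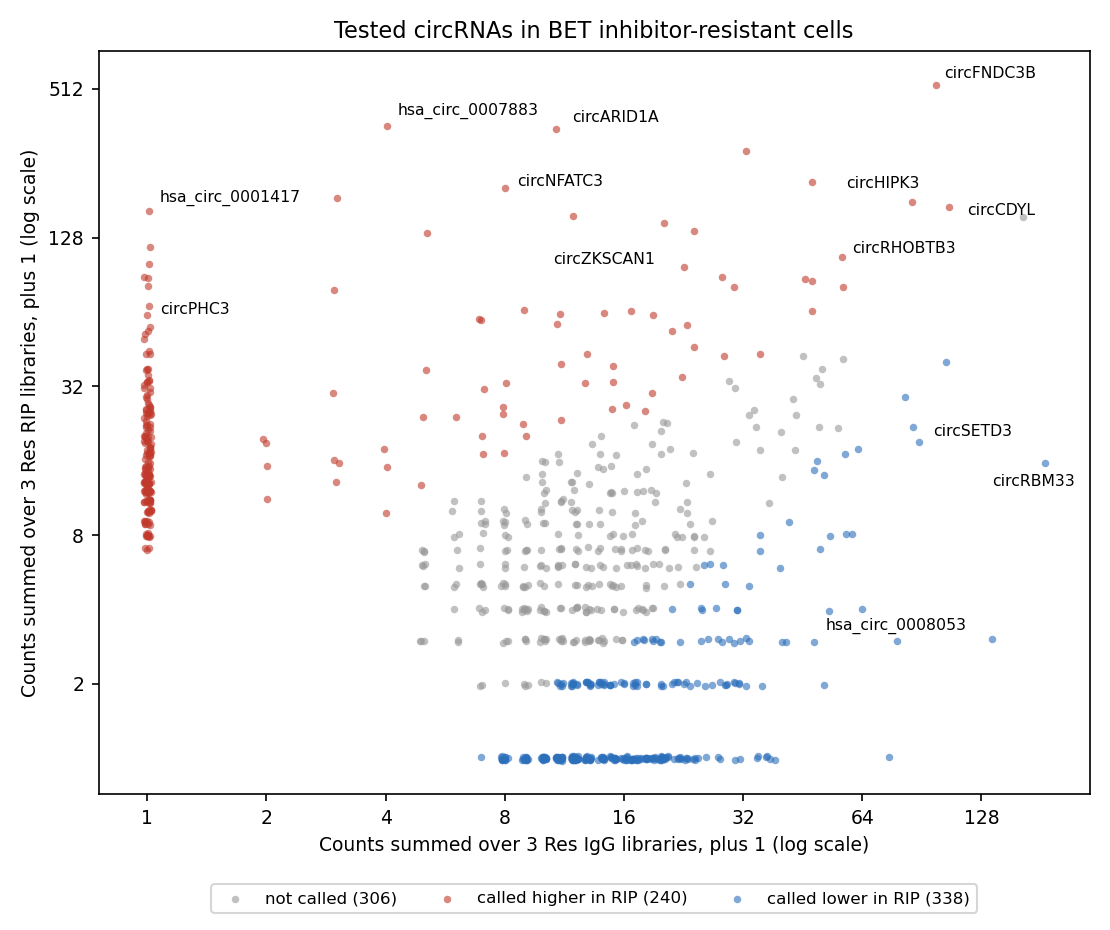
Each point is 1 of the 884 tested circRNAs, by its counts summed over the 3 IgG libraries (x axis) and the 3 RIP libraries (y axis), both plus 1 on log scales, with a slight jitter. The 170 points at the left edge had no IgG count and the 212 at the bottom no RIP count; 306 circRNAs with counts from both were not called.

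The lowest p values for a RIP excess belonged to hsa_circ_0007883, with 102, 166 and 97 RIP counts and 1, 2 and 0 IgG counts. Every RIP library lay far above every IgG library, and the ratio of the groups' counts, each divided by its summed TMM library size, was 188 (exact 95% interval 63.7 to 914, counting error only; 95.1 with column totals). Ratios and bounds below are on the TMM scale unless another is named. circARID1A (hsa_circ_0008494), from the gene of a SWI/SNF chromatin remodelling subunit, had 128, 140 and 92 RIP counts and 2, 6 and 2 IgG counts. In CPM, the RIP level of 26149 ± 2507 was 55.6-fold the IgG level of 470 ± 308 (log2 fold change 5.74, SE 0.42; edgeR adjusted p = 6.93e-40). circNFATC3 (hsa_circ_0000711), from the gene of a calcineurin-regulated transcription factor, had 53, 73 and 73 RIP counts and 2, 3 and 2 in IgG. In CPM this made a 44.6-fold excess (log2 fold change 5.39, SE 0.44; edgeR adjusted p = 4.93e-32). The groups of both circRNAs were wide apart.

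Among the 10 lowest p values, 3 came from circRNAs with no IgG count at all. hsa_circ_0001417 had 40, 72 and 49 RIP counts, at least 82.8-fold above the 3 counts that an IgG group at 0 allows (41.9-fold with column totals). hsa_circ_0000992 had 25, 59 and 35, at least 60.3-fold higher (31.0-fold with column totals). hsa_circ_0000799 had 35, 47 and 19, at least 50.5-fold higher (26.3-fold with column totals). They passed the filter through the RIP alone. Near-absence from IgG also marked hsa_circ_0001359, with 54, 82 and 47 RIP counts against 1, 1 and 0 (ratio 141, exact 95% interval 38.5 to 1174), and hsa_circ_0007132, with 44, 50 and 41 against 0, 4 and 0 (54.5-fold). These folds rest on few IgG counts. For hsa_circ_0007132, whose IgG counts all came from replicate 2, the fitted log2 fold change of 5.57 was 8.80 without that library and 4.85 without IgG replicate 3. For hsa_circ_0007883 it was 7.34, against 8.15 without IgG replicate 2 and 6.63 without IgG replicate 3. circARID1A went to 6.44 without IgG replicate 2, and hsa_circ_0001359 from 6.83 to 6.16 without IgG replicate 3.

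The remaining circRNAs of that list had a measurable IgG level. hsa_circ_0021570 had 95, 103 and 87 RIP counts against 11, 11 and 9, a 14.0-fold excess (log2 fold change 3.82, SE 0.35; edgeR adjusted p = 5.4e-26). hsa_circ_0007476 had 50, 59 and 47 against 4, 2 and 5, 21.8-fold higher (log2 fold change 4.41, SE 0.42; edgeR adjusted p = 1.6e-24). For all 10, the lowest RIP library lay above the highest IgG library in CPM, which was a condition of being listed. Over all 884 tested circRNAs, the groups did not overlap for 244 that were higher in the RIP and 373 that were lower.

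**Figure D3:**
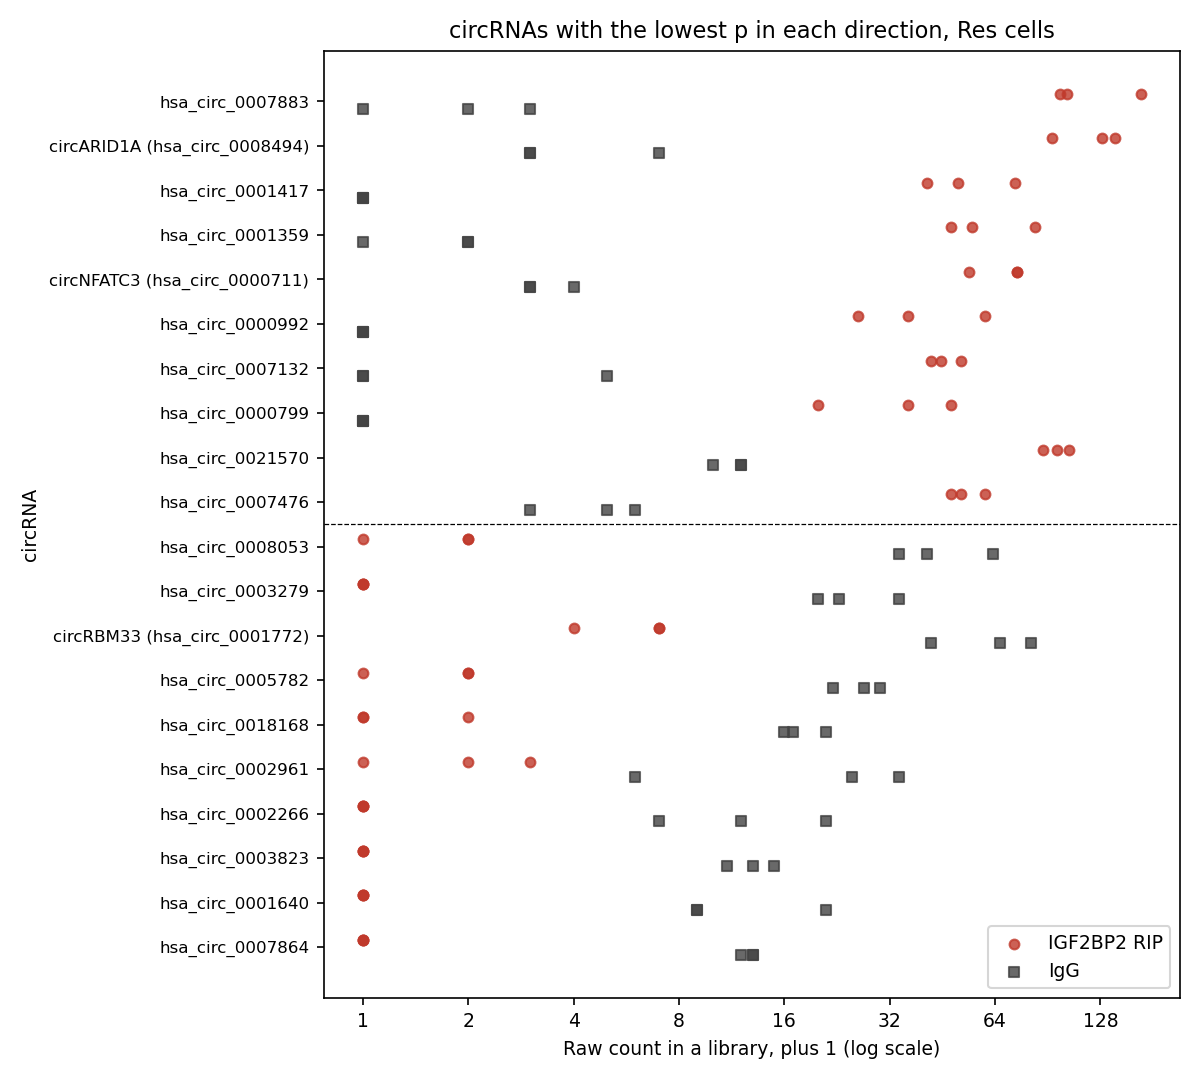
Raw counts plus 1 on a log scale (x axis) of the 10 circRNAs with the lowest p higher in the RIP (above the dashed line) and the 10 lower (below it), 1 point per Res library. RIP and IgG points do not overlap in any of the 20, where no overlap in CPM was a condition of the choice. For 3 circRNAs above and 5 below, 1 group is at 0.

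Lower in the RIP on the TMM scale were circRNAs that IgG recovered in quantity. hsa_circ_0008053 had 40, 33 and 62 IgG counts and 1, 0 and 1 RIP counts, a ratio of 43.8 (exact 95% interval 11.9 to 365; 86.4 with column totals). circRBM33 (hsa_circ_0001772), from an RNA-binding motif protein gene, had the most IgG counts of any circRNA, 41, 65 and 80, and 3, 6 and 6 in the RIP. It stood at 8570 ± 1313 CPM in IgG and 1119 ± 478 in the RIP, 7.66-fold lower (log2 fold change -2.96, SE 0.40; edgeR adjusted p = 3.73e-12). The groups did not overlap for either circRNA, which was a condition of their listing.

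hsa_circ_0003279, with 19, 22 and 33 IgG counts and none in the RIP, was at least 15.8-fold lower on that scale. hsa_circ_0005782 had 21, 29 and 26 IgG counts against 1, 1 and 0 (ratio 24.6, exact 95% interval 6.59 to 207). hsa_circ_0018168 had 15, 16 and 20 against 0, 1 and 0 (ratio 33.1, interval 5.67 to 1331). In these circRNAs the IgG replicates were close together. hsa_circ_0002961 was less even, with 5, 33 and 24 IgG counts against 0, 2 and 1 (ratio 13.4, interval 4.38 to 66.7). The other 4 of the 10, hsa_circ_0002266, hsa_circ_0003823, hsa_circ_0001640 and hsa_circ_0007864, had 6 to 20 counts in each IgG library and none in the RIP, which made each at least 7.54-fold lower. Without RIP replicate 2, the fitted log2 fold change went from -5.25 to -4.56 for hsa_circ_0008053, from -4.69 to -6.83 for hsa_circ_0018168 and from -3.60 to -4.31 for hsa_circ_0002961.

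None of the 338 lower calls was called lower with spike-in totals. Per the labels, the same amount of recovered RNA from each precipitation received the ERCC mix, so this scale states circRNA relative to the RNA put into a library. Per 1000 ERCC counts there were 8181, 12322 and 11560 circRNA counts in the RIP libraries and 68.9, 69.4 and 66.2 in IgG, a ratio of 157. All 680 circRNAs detected with both antibodies had a RIP to IgG ratio above 1 on this scale, from 1.80 for hsa_circ_0008053 to 14786 for hsa_circ_0007883, with a median of 42.6. Summed ERCC counts were 1851 in the RIP and 224945 in IgG, so 1 RIP count outweighs many IgG counts. A ratio above 1 was thus nearly fixed in advance and is no support for an excess. For the 563 circRNAs seen only in IgG, the limit of 3 RIP counts allows ratios of at least 4.93, so their direction on this scale cannot be read. circRBM33 had 8.74 ± 4.56 counts per 1000 ERCC counts in the RIP and 0.815 ± 0.0752 in IgG, a ratio of 10.7 and the opposite direction (log2 fold change 3.33; edgeR adjusted p = 1.26e-06). Of the 338 circRNAs lower with TMM, 38 turned to a higher call on the spike-in scale. The rest had no call there, 212 of them for want of any RIP count. All 240 higher calls stayed higher, an outcome that the ERCC totals made nearly certain. The RIP libraries held only 448 to 703 ERCC counts, against 56042 to 91178 in IgG, which limits this scale.

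**Figure D4:**
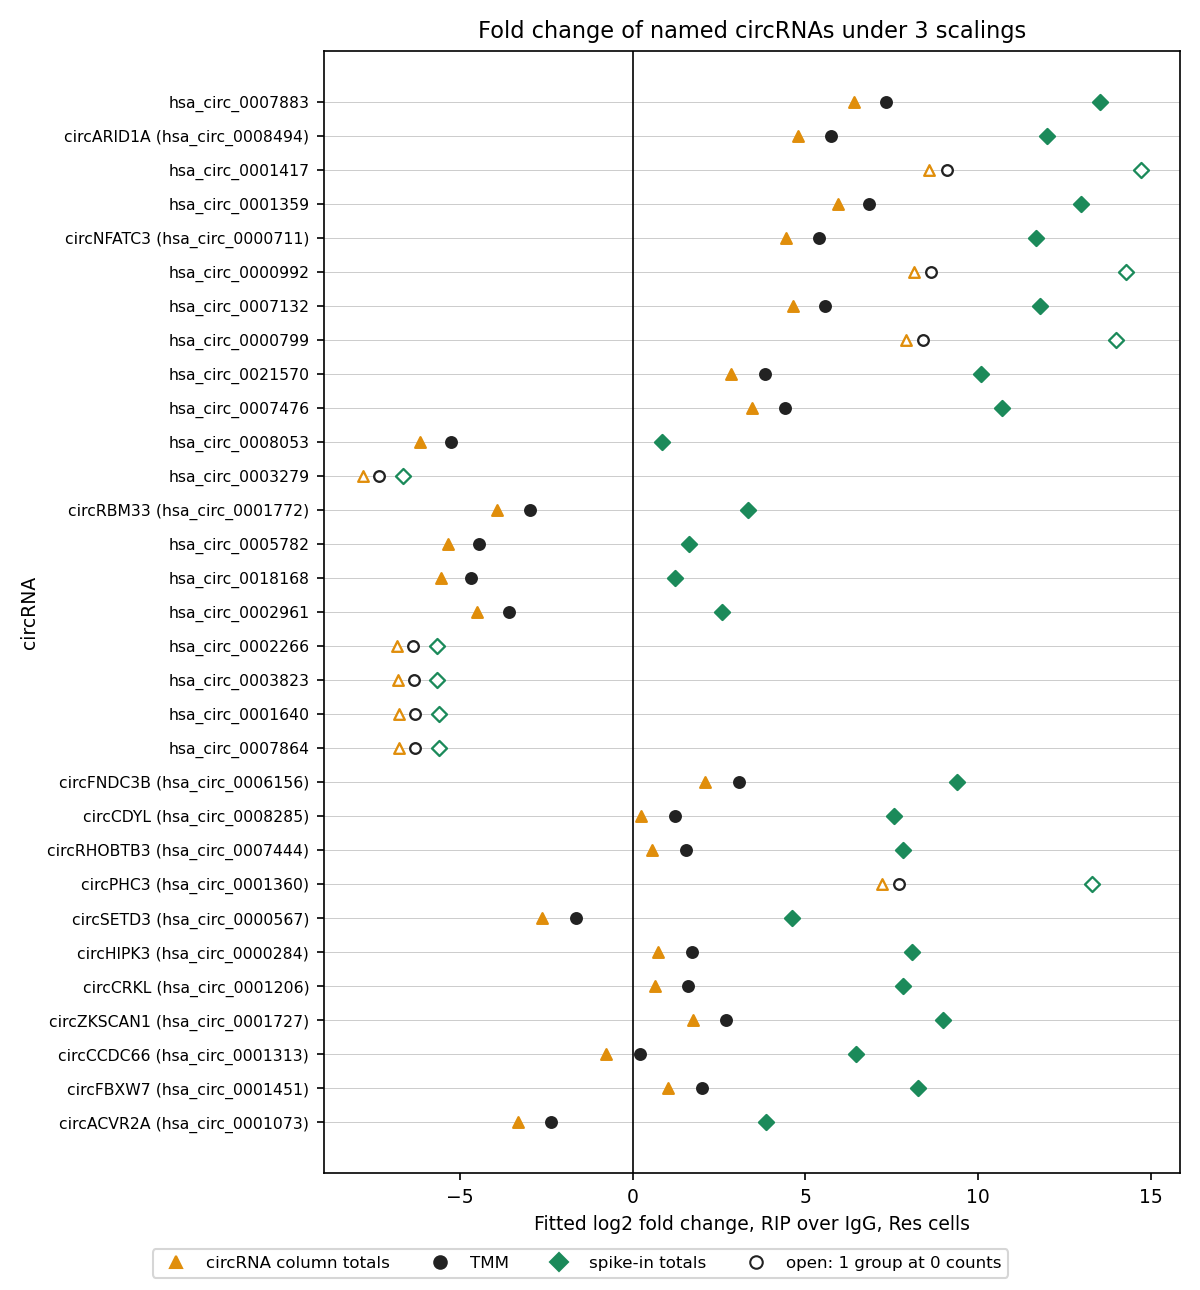
Fitted log2 fold change of RIP over IgG (x axis) for the 31 circRNAs named by rule or from the list of well-studied circRNAs, scaled by circRNA column totals, by TMM or by spike-in totals. Open symbols mark circRNAs with 1 group at 0 counts, whose fitted value is no bound; filled points left of 0 with TMM lie right of 0 with spike-in totals.

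The 10 circRNAs with most RIP counts were all called higher, and together they took 13.4% of summed RIP counts and 2.51% of summed IgG counts. Counts were not divided by length, which the table does not give. Of the 10 with most IgG counts, 6 were called lower, 3 higher and 1 neither. They took 7.38% of IgG and 5.82% of RIP counts. Over all tested circRNAs, 27.1% were called higher and 38.2% lower. Each list was chosen on counts that also enter the test. Its calls and shares thus largely restate that choice and are no support for a difference. The 3 circRNAs in both lists were circFNDC3B, circHIPK3 and circCDYL, which were thus prominent in the RIP and in its background. The one RIP-list member not described elsewhere, hsa_circ_0001756, had 61, 91 and 58 RIP counts and 17, 13 and 17 in IgG, with a wide gap between the groups (log2 fold change 2.76, SE 0.32; edgeR adjusted p = 7.83e-16). Other lower calls of the IgG list were of modest size. hsa_circ_0000437 had 30, 28 and 45 IgG counts against 12, 17 and 10 (log2 fold change -0.77, SE 0.35; edgeR adjusted p = 0.0416), and hsa_circ_0001380 had 19, 32 and 31 against 14, 7 and 7 (log2 fold change -0.90, SE 0.38; edgeR adjusted p = 0.0295). hsa_circ_0087960 was the least even of these, with 13, 42 and 30 IgG counts against 9, 7 and 5 (log2 fold change -1.36, SE 0.41; edgeR adjusted p = 0.00177). The circRNA with the most counts and no call was hsa_circ_0000745, with 48, 61 and 42 RIP counts and 39, 66 and 60 in IgG (log2 fold change 0.51, SE 0.29; edgeR adjusted p = 0.112). It was chosen after its values were seen, as was hsa_circ_0000118, next in summed count without a call, with 13, 11 and 17 against 16, 24 and 17 (log2 fold change 0.17, SE 0.38; edgeR adjusted p = 0.708).

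Over the 101 circRNAs with at least 2 counts in all 6 libraries, Pearson's r of log2 CPM was 0.840 to 0.875 between the 3 pairs of RIP libraries and 0.740 to 0.819 between the 3 IgG pairs. Between a RIP and an IgG library it was 0.144 to 0.348 in the 9 pairs. These are correlations across circRNAs, which are not independent replicates. Levels of these 101 circRNAs, of which 38 were called higher and 9 lower, thus correlated far more within an antibody than between antibodies. The median coefficient of variation of CPM was 31.8% in the RIP and 28.8% in IgG.

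Of 24 well-studied circRNAs listed by circBase identifier, 20 had a row, 14 passed the filter and 4 were not analysed here. The list was drawn up with earlier results of these data in view, and most of its members were known to be abundant. For some members the pattern of RIP and IgG counts was known too. Of the 14, 10 were called higher, 3 lower and 1 neither, with a median log2 fold change of 1.66 against -0.90 over all 884. These calls and this median thus partly restate how the list was chosen. Of these calls, circPHC3 and circACVR2A passed the filter through 1 antibody alone. The shares called over all tested were 27.1% and 38.2%.

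circFNDC3B (hsa_circ_0006156), whose host gene encodes a fibronectin type III domain membrane protein, had the most RIP counts of any circRNA, 151, 236 and 135, and 17, 51 and 27 in IgG. In CPM, the RIP level of 37366 ± 3537 was 8.49-fold the IgG level of 4401 ± 2238 (log2 fold change 3.07, SE 0.31; edgeR adjusted p = 3.91e-21). circZKSCAN1 (hsa_circ_0001727), from a zinc finger gene, had 32, 39 and 24 RIP counts against 7, 5 and 10, 6.61-fold higher (log2 fold change 2.71, SE 0.39; edgeR adjusted p = 4.1e-11). circPHC3 (hsa_circ_0001360), from the gene of a Polycomb repressive complex subunit, had 21, 27 and 14 RIP counts and none in IgG, at least 31.4-fold higher (16.2-fold with column totals). These calls held under every scaling tried.

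circHIPK3 (hsa_circ_0000284), from a homeodomain-interacting kinase gene and much studied as a binder of microRNAs, had 33, 88 and 56 RIP counts and 13, 33 and 37 IgG counts. The raw counts overlapped but the CPM did not, at 7484, 15365 and 15202 against 2259, 4516 and 4482. It was 3.38-fold higher (log2 fold change 1.72, SE 0.30; edgeR adjusted p = 1.73e-07), and its call was lost with no scaling (adjusted p = 0.072). circCDYL (hsa_circ_0008285), from the gene of a chromodomain corepressor, had 35, 94 and 37 RIP counts and 22, 46 and 38 IgG counts, 2.34-fold higher in CPM (log2 fold change 1.23, SE 0.30; edgeR adjusted p = 0.000128). With column totals its log2 fold change was 0.25 (adjusted p = 0.42).

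circRHOBTB3 (hsa_circ_0007444) had 24, 64 and 20 RIP counts against 18, 22 and 15, and circCRKL (hsa_circ_0001206), from the gene of a signalling adaptor, had 25, 10 and 10 against 7, 10 and 6. They were 2.77-fold and 3.06-fold higher in CPM (edgeR adjusted p = 2.38e-05 and 0.000783), with calls that column totals did not give (adjusted p = 0.11 and 0.167). Without RIP replicate 1, the log2 fold change of circCRKL went from 1.59 to 0.98 (adjusted p = 0.0919). circFBXW7 (hsa_circ_0001451), from the gene of a ubiquitin ligase substrate receptor, had 5, 15 and 12 against 3, 7 and 2, 4.07-fold higher (edgeR adjusted p = 0.00066; 0.0723 with column totals), with a log2 fold change of 2.00 that was 2.64 without IgG replicate 2. For these 4 circRNAs, circCDYL among them, an excess over other circRNAs was thus not settled across scalings. circCCDC66 (hsa_circ_0001313) gave no call on the TMM scale, with 8, 11 and 6 RIP counts and 12, 11 and 10 in IgG (log2 fold change 0.20, SE 0.46; edgeR adjusted p = 0.713; 6.46 on the log2 scale with spike-in totals).

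Beside circRBM33, the lower calls of the list were circSETD3 and circACVR2A. circSETD3 (hsa_circ_0000567), from the gene of the actin histidine methyltransferase, had 9, 6 and 3 RIP counts and 22, 22 and 45 in IgG, 3.15-fold lower (log2 fold change -1.65, SE 0.42; edgeR adjusted p = 0.000262). circACVR2A (hsa_circ_0001073), from an activin receptor gene, had 1, 3 and 2 against 9, 19 and 22, 5.28-fold lower (log2 fold change -2.36, SE 0.60). Both were called higher with spike-in totals, at log2 fold changes of 4.61 and 3.87. Of the 6 members with a row that missed the filter, circSMARCA5 had 1, 3 and 0 RIP counts and 0, 0 and 1 in IgG. circSHPRH had 1, 2 and 3 and circARFGEF2 1, 3 and 1 RIP counts, neither with a count in IgG. circMAPK1 and circNRIP1 had 1 RIP count each, circNRIP1 also 1 IgG count, and circITCH had none in the 6 libraries. At this depth no difference could be read for these 6.

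**Figure D5:**
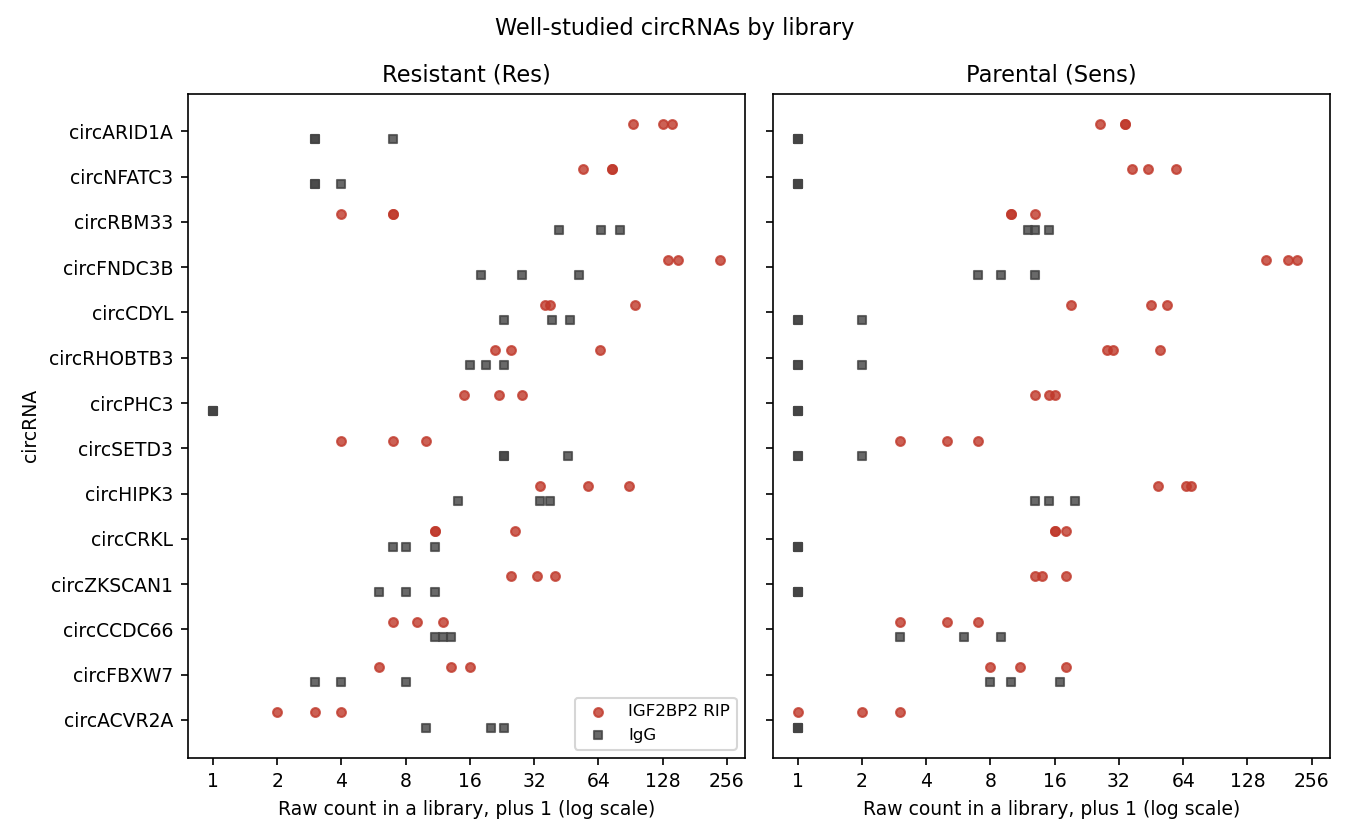
Raw counts plus 1 on a log scale (x axis) of the 14 well-studied circRNAs that passed the filter, 1 point per library, in resistant cells (left) and parental cells (right). circCDYL, circRHOBTB3, circSETD3, circCRKL, circZKSCAN1, circACVR2A, circARID1A and circNFATC3 have IgG counts in all 3 resistant libraries. Each of them has 0 or 1 count in total in the parental IgG libraries.

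The study defined enrichment as RIP minus IgG in RPM, reads scaled to a common library total, here taken as each library's summed circRNA counts. This difference was above 0 for 3706 of the 4837 circRNAs detected in Res cells, but for 260 of the 884 tested. The sign was fixed for the 3594 circRNAs seen only in the RIP and the 563 seen only in IgG. Among those tested, 170 were seen only in the RIP and 212 only in IgG. It was 20450 RPM (SE 1708) for circFNDC3B, 18358 (SE 414) for hsa_circ_0007883 and 18105 (SE 1869) for circARID1A. At the other end it was -11182 (SE 784) for circRBM33 and -8794 (SE 1402) for hsa_circ_0008053. For circCDYL it was 1196 with an SE of 1677, within its own error of 0. Among the calls on the TMM scale the sign of this difference went the other way for 1 of the 240 higher circRNAs, hsa_circ_0000566, and for none of the 338 lower ones. That circRNA, named here after its values were seen, had 9, 19 and 15 RIP counts and 11, 13 and 11 in IgG, a difference of -140 RPM (SE 485) and a TMM log2 fold change of 0.91 (SE 0.41; edgeR adjusted p = 0.037).

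Whether the enrichment in Res differed from that in parental cells was tested as an interaction over all 12 libraries, where 248 of 1307 circRNAs were called (19.0%). Of the 31 circRNAs named here, 17 were called, 2 with a larger and 15 with a smaller enrichment in Res. Over all 1307 the calls were 73 larger and 175 smaller. Those named by lowest p were chosen on Res values that also enter this contrast. The number and direction of calls among named circRNAs thus partly restate that choice. Enrichment was larger in Res for hsa_circ_0007883, with 61, 47 and 29 RIP counts and 5, 7 and 11 IgG counts in Sens (log2 change 3.69, SE 0.69; edgeR adjusted p = 2.85e-06), and for hsa_circ_0000799, with 25, 19 and 22 against 6, 4 and 3 (edgeR adjusted p = 0.000551). Both had more IgG counts in Sens than in Res, where the second had none, although the Sens IgG libraries were shallower.

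A smaller enrichment in Res was called for circFNDC3B, with 217, 155 and 198 RIP counts and 12, 8 and 6 IgG counts in Sens (log2 change -2.46, SE 0.36; edgeR adjusted p = 1.69e-09), and for circHIPK3, with 65, 69 and 48 against 19, 12 and 14 (log2 change -1.38, SE 0.37; edgeR adjusted p = 0.00277). As a share of a library's circRNA counts, circFNDC3B was 2.66% ± 0.0613 of Res RIP and 3.87% ± 0.602 of Sens RIP, and 0.611% ± 0.289 of Res IgG and 0.340% ± 0.112 of Sens IgG. circHIPK3 was 0.891% ± 0.275 of Res RIP and 1.23% ± 0.191 of Sens RIP, and 0.520% ± 0.159 of Res IgG and 0.580% ± 0.0770 of Sens IgG. The RIP libraries of circFNDC3B did not overlap between the lines. Those of circHIPK3 did, narrowly, with a highest share of 1.081% in Res and a lowest of 1.079% in Sens, and its IgG libraries overlapped too. For 10 of the 17 circRNAs the Sens IgG libraries held 0 or 1 count in total, among them circNFATC3 with 58, 36 and 43 RIP counts and no IgG count in Sens (edgeR adjusted p = 0.019). The enrichment of circARID1A itself was not called different (33, 33 and 25 RIP counts and no IgG count in Sens; edgeR adjusted p = 0.0659), nor was that of circPHC3 (14, 15 and 12 against 0; edgeR adjusted p = 1). All 17 were also called, in the same direction, with spike-in totals. Sens libraries held 529 to 764 ERCC counts with the RIP and 89886 to 133928 with IgG, against 448 to 703 and 56042 to 91178 in Res. Per ERCC count, the RIP thus exceeded IgG by more in Sens than in Res. Relative to column totals, this scale moves every circRNA toward a smaller enrichment in Res. Calls of a smaller enrichment on it are therefore no separate support. The interaction was not run with column totals, so whether the 17 calls hold on the scale of the shares above was not tested. For circFNDC3B and circHIPK3 those shares give smaller changes than the fitted log2 changes. Sens libraries held 4448 to 5561 circRNA counts with the RIP and 1960 to 2989 with IgG, against 5179 to 8662 and 3860 to 6036 in Res, and the part of depth in these results was not tested.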

How the data were processed

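The authors deposited 1 table of raw counts for circRNAs and ERCC transcripts, whole numbers whose totals differ between libraries. Per the submitters' processing notes the genome build was GRCh37. The aligner, caller and counting rule are not given in the sources used here. Per the labels' protocols the authors scaled to the spike-in with RUVSeq, which the deposited counts do not carry. The 57 ERCC rows took no part in tests or circRNA library sizes and served only for scaling to spike-in totals.

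The 6 Res libraries were fitted with edgeR 4.0.16 (R 4.3.3), TMM factors from the tested circRNAs with library sizes from all circRNAs, and the quasi-likelihood test. The prior degrees of freedom were infinite: the spread of each circRNA came wholly from the trend over all of them. Adjusted p under 0.05 was called. SEs were derived from the test statistic. Folds against a group at 0 used 3 counts over the group. Ratios with 1 to 3 counts in a group divide each group's summed counts by its summed TMM library size, with exact 95% intervals. The labels name no molecular identifiers, and PCR copies of 1 molecule may be counted more than once, so limits and intervals cover counting error only. The interaction used all 12 libraries, with the same filter over them.

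circRNAs named were the 10 with the lowest p per direction among calls whose groups did not overlap in CPM, and the well-studied list. Members and lists were chosen with earlier results of these data known. Alternatives were other scalings, DESeq2 1.42.0, limma-voom (limma 3.58.1), a robust prior, other filters, each library left out, a replicate block, all 12 libraries in 1 fit, and IgG summed to 1 sample.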

Additional observations from a re-analysis of the deposited data

Results flagged for a closer look

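The enrichment of 17 of the named circRNAs differed between Res and Sens by the interaction test on the TMM scale, which was not run with column totals. Each value below is the log2 RIP over IgG in Res minus that in Sens, by edgeR's quasi-likelihood test. Among circRNAs with counts in all 4 groups, the log2 change was 3.69 for hsa_circ_0007883, -2.55 for hsa_circ_0021570, -3.75 for circRBM33 and -2.46 for circFNDC3B. It was -6.17 for circCDYL, -5.72 for circRHOBTB3, -5.78 for circSETD3 and -1.38 for circHIPK3. The first 3 of this second group had 1 IgG count in total in Sens. The other 9 had a group at 0, so their fitted values are no bounds. They were 4.93 for hsa_circ_0000799, -3.85 for circNFATC3, -3.20 for hsa_circ_0007476, -9.47 for hsa_circ_0018168, -10.11 for hsa_circ_0003823, -6.57 for hsa_circ_0001640, -6.12 for circCRKL, -4.84 for circZKSCAN1 and -6.19 for circACVR2A.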

How the results depend on the processing

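The 578 calls (240 higher, 338 lower) ranged from 534 to 567 without 1 library (230 to 236 higher, 300 to 331 lower); no calls turned direction under any alternative other than spike-in totals. Stricter filters tested fewer circRNAs and gave 193 calls of 259 tested (91 higher, 102 lower) at 5 counts and 70 of 86 (39 and 31) at 10 counts. A filter chosen after seeing the data, 20 counts over the 6 libraries, gave 221 of 345 (114 and 107). With no filter there were 386 higher and 212 lower. Spike-in totals gave 575 higher and 0 lower by edgeR, and at an unadjusted p under 0.05 again 0 lower. The ERCC totals left little room for a lower call. DESeq2 and limma-voom were not run on that scale. DESeq2 called 467 and limma-voom 530, and IgG summed to 1 sample gave 553. No pairing by replicate number was seen, with correlations of deviations between -0.032 and 0.050 for the 3 same-numbered pairs. This check used 502 circRNAs with a median summed count of 20, where counting noise could hide a shared replicate effect. With the replicate block there were 398 calls, 219 higher and 179 lower, and the interaction gave 166 in place of 248. The block took the interaction call of hsa_circ_0007476 (adjusted p = 0.0609) and of no other named circRNA. The prior degrees of freedom, infinite in the main fit, were 6.92 without IgG replicate 2 and 5.45 with no scaling. The edgeR adjusted p of circARID1A, 6.93e-40 in the main fit, was 1.72e-06 and 0.000511 in these 2 fits. For circFNDC3B it was 3.91e-21 in the main fit, and 1.72e-06 and 0.0056 in these. The limma-voom adjusted p was 3.37e-05 for circARID1A and 9.11e-05 for circFNDC3B. How small a p was thus depended on the settings of the fit. The RIP to IgG ratio of circRNAs detected, 2.01, was 1.08 for circRNAs with at least 2 counts in a library.

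The log2 fold change turned, on the spike-in scale, to 0.84 for hsa_circ_0008053, 3.33 for circRBM33, 1.64 for hsa_circ_0005782, 1.22 for hsa_circ_0018168, 2.59 for hsa_circ_0002961, 4.61 for circSETD3 and 3.87 for circACVR2A. circCCDC66, not called, turned to -0.76 with column totals, -0.40 with no scaling, -0.11 with RLE factors, -0.13 with DESeq2, -0.084 and -0.80 with the stricter filters, and ranged from -0.037 (without IgG replicate 3) to 0.39 (without IgG replicate 1) when 1 library was left out. The cause was not tested. Depth limits low circRNAs most: 3953 detected circRNAs were not tested.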
